A study of Homo sapiens with 10 samples.

Results

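The ZEB, SNAIL and TWIST transcription factors were followed through 5 pairs of melanoma cell lines, each pair being a line sensitive to BRAF and MEK inhibition and a resistant line labelled as its derivative. The 6 genes were ZEB1, ZEB2, SNAI1, SNAI2 (SLUG), TWIST1 and TWIST2, taken by gene symbol from 57955 genes in the table. All 6 were found, and all 6 passed the filter on low counts.

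The original lines WM983A, WM278 and WM902B came from primary tumours and WM983B and WM1617 from metastases. All carry the BRAF V600E mutation, and WM983A with WM983B, and WM278 with WM1617, were each started from a single patient, so the 5 lines are not fully independent. Resistant lines were selected with rising doses of encorafenib (a BRAF inhibitor) and binimetinib (a MEK inhibitor), from 1 to 200 nM over 3 to 5 months, and were then kept in 200 nM, so that resistance and the presence of the drugs cannot be told apart. Polyadenylated RNA of every line and state was sequenced once, which gave 5 sensitive and 5 resistant libraries and no replicate inside a line.

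ZEB1 and ZEB2 are zinc finger and homeodomain repressors, SNAI1 and SNAI2 are zinc finger repressors, and TWIST1 and TWIST2 are basic helix-loop-helix factors that pair with E proteins. In epithelia these factors bind E-box sequences, silence adhesion genes such as CDH1 (E-cadherin) and drive epithelial-mesenchymal transition. Melanocytes come from the neural crest, where several of them are normally active. In this lineage ZEB2 and SNAI2 are known to accompany the differentiated state and ZEB1 and TWIST1 the undifferentiated one, an arrangement often called a switch between the factors.

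The library labelled resistant WM983A stood apart from the others and is therefore described before the results. It held 781 counts of CDH1 against 10 in its sensitive parent. It also held 84 counts of SOX10 (the neural crest and melanocyte regulator) against 5197, and 446 of MITF (the master regulator of pigment cells) against 5849. Low SOX10 was not particular to this library, with 201 counts in resistant WM983B and 10 in resistant WM902B. MITF was low in resistant WM983B too, with 588 counts. In resistant WM983A 38 genes reached 1000 normalised counts or more while holding no more than 3 counts in the sensitive parent. In the other 4 lines this number ranged from 0 to 9. Its log2 levels correlated less with its own parent (r = 0.787) than with sensitive WM902B (r = 0.813), whereas the other 4 resistant libraries were closest to their own parents. Whether this library derives from WM983A cannot be told from the counts, so each WM983A ratio is that of the 2 libraries so labelled. Its part in the results was not tested, and the fold changes of the 6 genes, the list counts and the correlations are given with and without it where it moved them.

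Library totals lay between 13693922 and 18033247 counts. Each of the 11 melanocyte lineage markers exceeded 3 counts in at least 1 library of each state. Single libraries could hold few, as TYRP1 had 4 counts in sensitive WM278 and 1 in resistant WM983A. The summed normalised counts of the 11 were 8520 to 71401 in sensitive and 2303 to 70832 in resistant libraries. The lowest sensitive sum was that of WM278, which held only 171 counts of MITF. Markers of endothelial, leukocyte and keratinocyte cells were low. The sums did not exceed 40.6 for 3 endothelial, 78.2 for 4 leukocyte and 307 for 5 keratinocyte genes. Both the 78.2 and the 307 were of resistant WM983B, and the sensitive libraries did not exceed 11.9 and 31.2. The keratinocyte list leaves out other epithelial genes such as EPCAM, which held 145 counts in resistant WM983A and 0 to 5 in the other libraries. The 5 fibroblast markers summed to 103 in resistant WM983A and 21142 in resistant WM902B, most of it COL1A1 with 18229 counts, and their part in the results was not tested.

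Sequence features set the ZEB genes apart from the rest of the family. The microRNAs of the miR-200 family, known as repressors of ZEB1 and ZEB2 in epithelial cells, fall into a pair of seed groups. Their mature sequences are shown (RefSeq, GRCh38.p14) because the seed, bases 2 to 8, in capitals, defines what was searched for. The first group shares the seed AAUACUG.
hsa-miR-200b-3p: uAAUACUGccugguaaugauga
hsa-miR-200c-3p: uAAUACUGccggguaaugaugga
hsa-miR-429: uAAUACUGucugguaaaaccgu
The other group differs at the third base of the seed.
hsa-miR-200a-3p: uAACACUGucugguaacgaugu
hsa-miR-141-3p: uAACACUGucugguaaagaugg

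The longest annotated 3′ UTR of ZEB1 (2549 bases, GENCODE 44) held 6 matches to the first seed and 3 to the other. Among 3207 genes with a 3′ UTR within 25% of that length, 24.8% held at least 1 match to the first seed and 0.0312%, which is ZEB1 itself, held 6. The 3′ UTR of ZEB2 (5370 bases) held 5 and 4 matches, and 0.122% of 1640 genes of like length held 5 or more of the first. SNAI2 held 1 match to the first seed, as 11.1% of genes of like length did, and SNAI1, TWIST1 and TWIST2 held none of either. The 3′ UTRs of these 3 are short, and only 8.07%, 6.48% and 6.75% of genes of like length held the first seed. Its absence from them is thus the usual case. One site per ZEB gene is shown, with the seed match in capitals, at position 369 of the ZEB1 and 392 of the ZEB2 3′ UTR.
ZEB1 site: ttgttttatcttatCAGTATTa
ZEB2 site: gcactaccatacatCAGTATTt
Mature microRNAs were not measured by these libraries. The rows of the hairpin genes MIR200A, MIR200B, MIR429, MIR200C and MIR141 held 0 counts in all 10 libraries. These zeros do not tell whether the microRNAs or their host transcripts were present.

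ZEB1 (ENSG00000148516) lies on the plus strand of chromosome 10 (GRCh38, chr10:31318495-31529814). It was higher in 4 of 5 resistant lines, by very different amounts. In the sensitive libraries its normalised count was 0 in WM983A and 2.01 in WM983B, 584 in WM278 and 352 in WM1617, and 72.1 in WM902B. In the resistant ones it was 454, 13.4, 223, 405 and 723 in the same order. Sensitive WM983A and WM983B, from the same patient, practically lacked the transcript, while the other sensitive lines held it, and the states overlapped widely.

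In WM983A the count of ZEB1 went from 0 to 389, which is at least 151-fold higher when 3 counts are taken as the floor. In WM902B it was 10.0-fold higher, with a 95% counting interval (exact Clopper-Pearson) of 7.84 to 13.0. In WM983B it went from 2 to 14 counts, a ratio of 6.63 with an interval of 1.52 to 60.1. The 3 lines with at least 2-fold more ZEB1 were thus those with the lowest sensitive levels. In WM278, the sensitive line with the most ZEB1, the resistant library was 2.62-fold lower (2.25 to 3.06). In WM1617 the ratio was 1.15 (0.997 to 1.33). In such bulk RNA fewer cells with the transcript and less of it per cell cannot be told apart. With a single library behind each value, such intervals hold counting error and no spread between cultures.

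ZEB2 (ENSG00000169554; chr2:144364364-144521057, minus strand) was the steadiest of the 6 in the sensitive lines, with a range of only 1.89-fold. Its normalised count was 1862 in sensitive WM983A and 1585 in WM983B, 1174 in WM278 and 983 in WM1617, and 1612 in WM902B. The resistant libraries held 93.4, 2178, 2478, 1336 and 1723. The library labelled resistant WM983A was 19.9-fold below its parent (15.9 to 25.2), and the other 4 resistant libraries were all above theirs.

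Those 4 increases of ZEB2 were modest: 2.11-fold in WM278 (1.97 to 2.26), 1.37-fold in WM983B, 1.36-fold in WM1617 and 1.07-fold in WM902B, where the interval of 0.997 to 1.15 included 1. Over the 4 lines without WM983A the log2 ratio averaged 0.52 with an SD of 0.408, against -0.45 with an SD of 2.18 over all 5. The edgeR log2 fold change without both WM983A libraries was 0.53 (SE 0.272), with an unadjusted p = 0.0872 and an adjusted p = 0.915. In that fit 4.87% of all genes passed at an unadjusted p of 0.05.

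**Figure D1:**
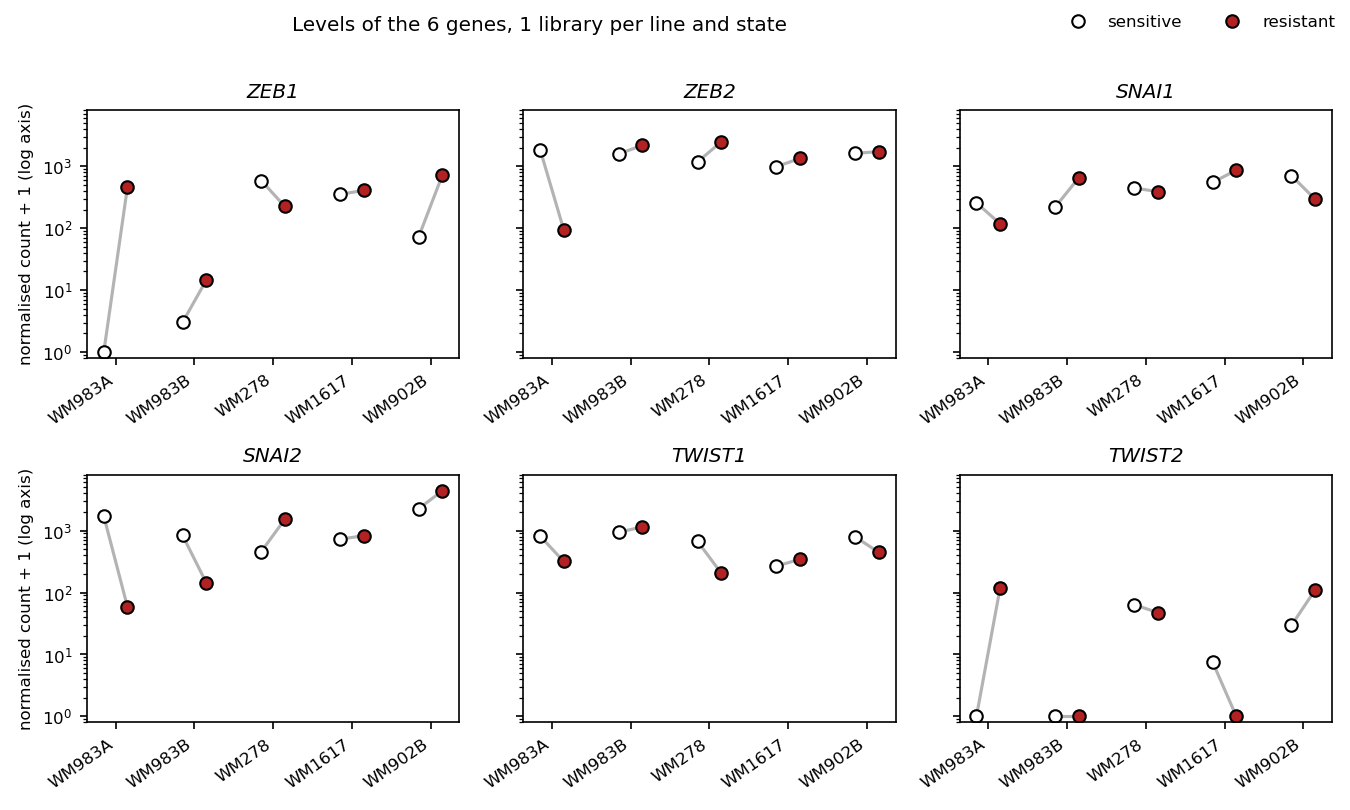
Normalised count plus 1 (log axis) of each gene in the sensitive (open) and resistant (filled) library of every line, with 1 library per point and a grey line joining each pair. ZEB1 went from 0 to 454 and ZEB2 from 1862 to 93.4 in WM983A, whereas both SNAI1 and TWIST1 stayed between 117 and 1150 in all 10 libraries.

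The balance of the ZEB genes was compared per kb of exon, because ZEB2 has far longer annotated exons (26151 bases in all) than ZEB1 (8650 bases). In sensitive WM278 and WM1617 the ratio of ZEB2 to ZEB1 was 0.665 and 0.924, and in sensitive WM902B it was 7.39. In sensitive WM983A and WM983B, ZEB1 stood at 0 and 0.233 per kb against 71.2 and 60.6 for ZEB2. After resistance the ratio was 0.0680 in WM983A and 53.9 in WM983B, 3.67 in WM278 and 1.09 in WM1617, and 0.788 in WM902B.

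Toward resistance the balance therefore moved to ZEB1 in WM983A and WM902B, to ZEB2 in WM278, and little in WM1617. WM983B is left out of that order, as its parent held 2 counts of ZEB1. The path by which it moved differed as well. In WM983A ZEB1 was higher and ZEB2 lower, and in WM278 it was the reverse. In WM902B only ZEB1 differed by 2-fold or more. With the longest annotated transcript as the length, the ratio of ZEB2 to ZEB1 was 1.31 in sensitive and 7.25 in resistant WM278. It was then 1.82 in sensitive WM1617 and 1.55 in resistant WM902B. Which gene was the higher in these libraries thus depended on the length used.

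**Figure D2:**
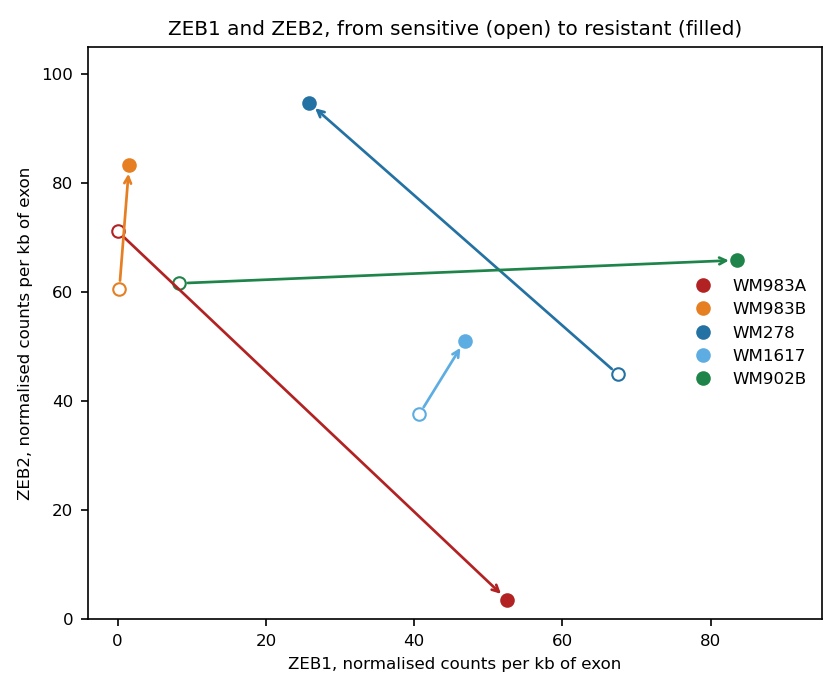
ZEB1 (horizontal) and ZEB2 (vertical) in normalised counts per kb of exon, each arrow running from the sensitive (open) to the resistant (filled) library of a line. The arrows of WM983A and WM278 point in opposite directions, and that of WM902B is almost level, with ZEB1 going from 8.34 to 83.6.

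SNAI1 (ENSG00000124216; chr20:49982980-49988886, plus strand), the founding SNAIL repressor, is a target of growth factor signalling in many cells. Its normalised count in the sensitive libraries was 256 in WM983A and 219 in WM983B, 445 in WM278 and 546 in WM1617, and 703 in WM902B. The resistant libraries held 117, 652, 389, 867 and 293. It was 2.98-fold higher in WM983B (2.56 to 3.49) and 1.59-fold higher in WM1617 (1.42 to 1.77).

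SNAI1 was 2.40-fold lower in WM902B (2.08 to 2.76) and 2.19-fold lower in WM983A (1.73 to 2.79). In WM278 the resistant library was 1.14-fold lower, with an interval of 0.998 to 1.31. Both increases were thus in the lines from metastases, and the states overlapped. Counts of its processed pseudogene SNAI1P1 were 0 to 2, and those of ZEB2P1, a pseudogene of ZEB2, were 0 to 32. How reads shared between copies were counted is not given in the sources used here, so their weight cannot be told.

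SNAI2 (ENSG00000019549; chr8:48917598-48921740, minus strand), which is required for melanocyte development, spanned 74.9-fold between resistant libraries, the widest range among the 4 genes with counts in every library. The sensitive libraries held 1714 normalised counts in WM983A and 838 in WM983B, 457 in WM278 and 724 in WM1617, and 2272 in WM902B. The resistant ones held 58.4, 144, 1529, 827 and 4376. The WM983 lines, from the same patient, were both lower, and the other 3 were higher.

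SNAI2 was 29.3-fold lower in WM983A (22.2 to 39.7) and 5.82-fold lower in WM983B (4.89 to 6.96). It was 3.35-fold higher in WM278 (3.02 to 3.71), 1.93-fold higher in WM902B (1.83 to 2.03) and 1.14-fold higher in WM1617 (1.03 to 1.26). MITF was lower in the WM983 lines too, with a log2 ratio of -3.49 in WM983A and -2.84 in WM983B. In WM902B the log2 ratio of SNAI2 was 0.95 while those of MITF and SOX10 were -0.87 and -8.74. SNAI2 and SOX10 thus went in opposite directions in that line.

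TWIST1 (ENSG00000122691; chr7:19020991-19117636, minus strand), a mesoderm and neural crest factor, was present in all libraries. The sensitive libraries held 815 normalised counts in WM983A and 940 in WM983B, 668 in WM278 and 266 in WM1617, and 793 in WM902B. The resistant ones held 316, 1150, 205, 343 and 445. It was lower in the 3 lines from primary tumours, by 2.58-fold in WM983A (2.24 to 2.97), 3.26-fold in WM278 (2.79 to 3.82) and 1.78-fold in WM902B (1.58 to 2.01).

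In the lines from metastases TWIST1 was 1.22-fold higher in WM983B (1.12 to 1.33) and 1.29-fold higher in WM1617 (1.10 to 1.52). The states overlapped. No line had a 2-fold higher level of TWIST1, which held for none of the other 5 genes.

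TWIST2 (ENSG00000233608; chr2:238848032-238910534, plus strand), the close relative of TWIST1 that marks dermal cells, was the lowest of the 6 and was absent from some libraries. Its counts in the sensitive libraries were 0 in WM983A and 0 in WM983B, 66 in WM278 and 6 in WM1617, and 28 in WM902B. The resistant libraries held 100, 0, 48, 0 and 106. All 3 resistant lines from primary tumours held the transcript, and neither of those from metastases did, where a count of 0 still allows up to 3 counts.

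In WM983A TWIST2 was at least 38.9-fold higher and in WM902B 3.84-fold higher (2.51 to 6.04). In WM1617 it was at least 2.49-fold lower, and in WM278 1.35-fold lower with an interval of 0.918 to 2.00. No ratio was formed in WM983B. The signs of the log2 ratios of TWIST2 were those of ZEB1 in WM983A, WM902B and WM278 and the opposite in WM1617.

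**Figure D3:**
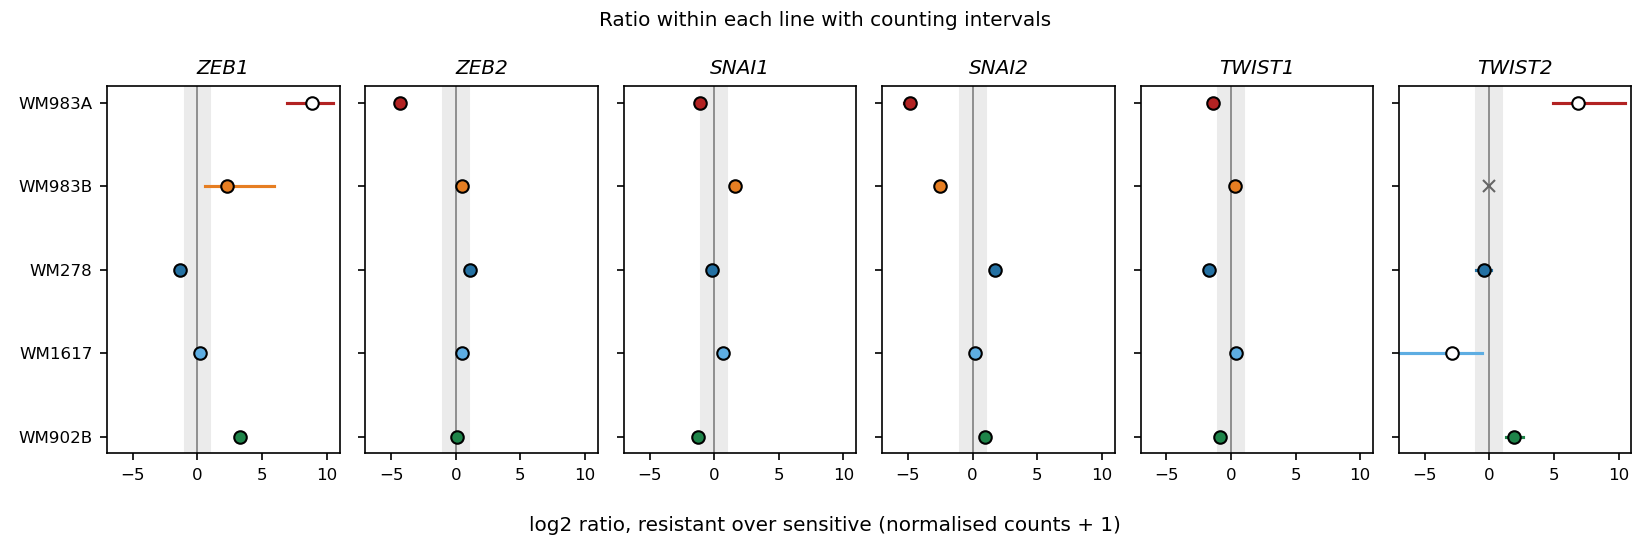
Log2 ratio of resistant to sensitive (normalised counts plus 1) for each gene in each line. Bars are 95% counting intervals, the grey band marks ratios under 2-fold, open points are ratios against a library with 0 counts whose bars run on without end, and the cross marks a pair with 0 counts in both. ZEB1 reached 8.83 and ZEB2 -4.30 in WM983A, whereas in WM1617 all genes but TWIST2 lay inside the band.

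Whether the resistant state as such changed the 6 genes was asked in all 10 libraries together (edgeR quasi-likelihood test, 5 against 5, two-sided, Benjamini-Hochberg adjustment over 17288 genes). The log2 fold change was 0.85 for ZEB1 (SE 1.39, unadjusted p = 0.556), 0.11 for ZEB2 (SE 0.604, unadjusted p = 0.854) and 0.10 for SNAI1 (SE 0.513, unadjusted p = 0.855). It was 0.21 for SNAI2 (SE 0.943, unadjusted p = 0.830), -0.50 for TWIST1 (SE 0.484, unadjusted p = 0.323) and 1.46 for TWIST2 (SE 1.58, unadjusted p = 0.375). Adjusted p-values of edgeR ran from 0.866 for TWIST1 to 0.983 for SNAI1.

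None of the 6 genes passed the unadjusted threshold of 0.05 by edgeR, where 7.14% of all genes did, and none passed it by DESeq2 or limma voom. No gene in the table passed after adjustment by edgeR, while 1235 did before it and DESeq2 called 104 after adjustment at a 2-fold change. The groups overlapped for all 6 genes, and 0.764% of all genes had groups that did not. The median log2 fold change of the 6 was 0.16, against 0.03 over all genes tested.

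Exact permutation tests of the mean log2 level, 5 libraries against 5, gave p = 0.238 for ZEB1, 0.929 for ZEB2, 0.921 for SNAI1, 0.460 for SNAI2, 0.238 for TWIST1 and 0.619 for TWIST2. These tests left the pairing by line aside, and the smallest p that they allow is 0.00794. The difference of mean log2 levels behind these tests was -0.45 for ZEB2 and -0.07 for SNAI1, and without the library labelled resistant WM983A it was 0.42 (exact p = 0.159) and 0.35 (exact p = 0.476), so the sign turned with that library. Without the library labelled resistant WM983A the edgeR log2 fold change was 0.76 for ZEB1, 0.41 for ZEB2, 0.34 for SNAI1, 0.51 for SNAI2, -0.39 for TWIST1 and 0.98 for TWIST2, with unadjusted p of 0.144 or more. One call did depend on a single library: without resistant WM983B, TWIST1 had a log2 fold change of -1.08 and an unadjusted edgeR p of 0.0179 (adjusted p = 0.871), and without both WM983B libraries -0.96 and 0.0407 (adjusted p = 0.998).

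The ratios differed widely between lines. None of the 6 genes had a ratio of the same sign in all 5 lines, which 11.1% of all genes had. Over the 5 lines the SD of the log2 ratio was 3.91 for ZEB1, and 0.683% of all genes tested had a larger one. It was 3.66 for TWIST2 (1.05% of genes larger), 2.73 for SNAI2 (3.75%) and 2.18 for ZEB2 (6.93%). SNAI1 with 1.20 (20.1%) and TWIST1 with 0.944 (28.5%) were less variable. Without WM983A the SD was 2.10 for ZEB1, 1.98 for TWIST2, 1.86 for SNAI2 and 0.408 for ZEB2.

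Within WM983A 2 of the 6 genes were at least 2-fold higher and 4 at least 2-fold lower, where 16.9% and 19.4% of all genes were. In WM983B it was 2 and 1 (16.2% and 11.2% of all genes) and in WM278 2 and 2 (12.1% and 7.00%). In WM902B it was 2 and 1 (15.4% and 12.0%), and in WM1617 0 and 1 (2.83% and 3.80%). The median absolute log2 ratio of the 6 was 4.58 in WM983A and 1.01 in WM983B, 1.23 in WM278 and 0.40 in WM1617, and 1.10 in WM902B, against 0.71, 0.58, 0.42, 0.25 and 0.56 over all genes.

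Per kb of exon the median over the 10 libraries was 279 normalised counts for TWIST1, 254 for SNAI2, 244 for SNAI1, 61.1 for ZEB2, 33.2 for ZEB1 and 8.20 for TWIST2. TWIST1 exceeded SNAI2 in 4 of 10 libraries and SNAI2 exceeded SNAI1 in 5 of 10, so the order of these 3 was not separated by the spread between libraries. SNAI1 exceeded ZEB2 in 10 of 10, ZEB2 exceeded ZEB1 in 6 of 10, and ZEB1 exceeded TWIST2 in 7 of 10. With the longest annotated transcript as the length, the median of ZEB2 was 167 per kb. SNAI1 then exceeded ZEB2 in 6 of 10, and ZEB2 exceeded ZEB1 in 9 of 10.

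The member with the highest level per kb also differed between libraries. SNAI2 led in sensitive WM983A and in both states of WM902B, SNAI1 in both states of WM1617, and TWIST1 in both states of WM983B. Resistance was accompanied by another leader in WM983A, where it was TWIST1, and in WM278, where SNAI2 led in place of TWIST1. The summed normalised count of the 6 genes was 4647, 3583, 3390, 2878 and 5480 in the sensitive libraries and 1156, 4137, 4870, 3778 and 7669 in the resistant ones. It was thus higher in 4 resistant lines and lower in WM983A.

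By origin of the line, the ratios of SNAI1 and TWIST1 were negative in all 3 lines from primary tumours and positive in both from metastases. The mean log2 ratio of SNAI1 was -0.86 in the former and 1.12 in the latter, and that of TWIST1 was -1.30 and 0.33. Among all genes, 2.27% had this arrangement, 2.30% the reverse and 4.57% one or the other. The exact permutation test, 3 lines against 2, gave p = 0.1 for both, the smallest p it can give, so the design cannot pass a threshold of 0.05. TWIST2 in the resistant libraries had mean log2 levels of 6.41 and 0, also with an exact p of 0.1.

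Genes whose log2 levels were most like those of each factor over the 10 libraries are given as a description, since the libraries share patients, lines and, for several factors, the far point of resistant WM983A. ZEB1 was most like THRB (a thyroid hormone receptor, r = 0.981), CUZD1 (r = 0.956) and MMACHC (r = 0.954). Genes among the most like ZEB2 were CA13 (a carbonic anhydrase, r = 0.980) and ICAM1 (an adhesion receptor for leukocytes, r = 0.972), and without resistant WM983A these values fell to 0.732 and 0.687. SNAI1 had lower values, led by RELL2 (r = 0.909), LRRC56 (r = 0.898) and DLX2 (r = 0.896).

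SNAI2 was most like EID1 (r = 0.959), DCN (the matrix proteoglycan decorin, r = 0.937) and ST20 (r = 0.930). TWIST1 was most like TMEM39B (r = 0.946), STEAP3-AS1 (r = 0.941) and the pseudogene MTX1P1 (r = 0.930). TWIST2 was most like ZNF229 (r = 0.970), TGFB2 (a transforming growth factor β ligand, r = 0.969) and TGFB2-OT1 (r = 0.964), a transcript that lies within TGFB2. Among the factors themselves, ZEB1 had r = 0.71 with TWIST2 and -0.68 with TWIST1, and 0.69 and -0.66 without resistant WM983A. ZEB2 and SNAI2 had r = 0.68 with and 0.10 without that library.

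The antisense genes were read beside the factors. ZEB1-AS1, which starts next to ZEB1 and runs the other way, held 0, 0, 16, 67 and 16 counts in the sensitive and 60, 11, 31, 58 and 55 in the resistant libraries, in the order WM983A, WM983B, WM278, WM1617 and WM902B. It was absent where ZEB1 was absent or at 2 counts. Use of strand in the counting is not given in the sources used here, so reads of ZEB1 and ZEB1-AS1 where they overlap may not be separated. SNAI3-AS1 was higher at an unadjusted edgeR p of 0.0418 (log2 fold change 0.93, SE 0.403, adjusted p = 0.690), while SNAI3 itself, the third SNAIL gene, held too few counts to be tested. It passed under the block by line too, but in only 4 of the 15 fits that left out 1 library or 1 line: without both WM983A libraries (where ZEB2-AS1 passed as well), without sensitive WM983A, without resistant WM983B and without both WM983B libraries. Without the library labelled resistant WM983A it did not pass.

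Of 10 relatives of SNAIL and TWIST, 3 were tested and none passed at an unadjusted edgeR p of 0.05, where 7.14% of all genes did. MSC (musculin, a basic helix-loop-helix repressor) had log2 ratios of -5.70, 1.93, 1.55, 0.18 and 2.96 in the same order of lines, so its lowest ratio was in WM983A, as was that of SNAI2. SCX (scleraxis) had log2 ratios of 0.80, 1.54, 2.11, -0.78 and 3.23. Without the library labelled resistant WM983A both passed the unadjusted threshold, where 4.52% of all genes were higher. Without both WM983A libraries MSC alone passed (3.38% of all genes higher), and SCX passed without either or both WM1617 libraries.

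Co-repressors and dimer partners decide what these factors can do on DNA. Of 19 such genes, 4 were higher and 0 lower at an unadjusted edgeR p of 0.05, against 4.81% and 2.34% of all genes, and none passed after adjustment. They were AJUBA, a co-repressor of SNAIL proteins, and ID1, ID2 and ID3, which bind E proteins and keep them from TWIST factors. ID1 held 1778, 1680, 1305, 1663 and 2394 counts in the sensitive and 4636, 5636, 1480, 3516 and 1938 in the resistant libraries (log2 fold change 0.95, SE 0.379, unadjusted p = 0.0302, adjusted p = 0.677 by edgeR). ID2 had log2 ratios between -0.58 in WM1617 and 3.83 in WM902B. Without both WM983A libraries none of the 19 passed, where 3.38% of all genes were higher and 1.49% lower, and over the 15 fits that left out 1 library or 1 line 0 to 3 were higher and 0 to 1 lower. With the line as a block AJUBA and ID3 were higher and the histone methyltransferases SUV39H1 and EZH2 lower (5.69% and 4.99% of all genes).

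The median log2 fold change of these 19 was -0.08. Of 16 genes that govern the stability of SNAIL, TWIST and ZEB proteins, none passed in either direction, where 7.14% of all genes did. Their median was 0.01. The smallest p values belonged to FBXL14 (a ubiquitin ligase subunit for SNAIL proteins, log2 fold change -0.50, edgeR unadjusted p = 0.0609, adjusted p = 0.703) and FBXL5 (0.60, edgeR unadjusted p = 0.105, adjusted p = 0.757). Protein levels of the factors were not measured by these libraries. The authors ran a separate protein array. Among the resistant lines followed after drug withdrawal, they reported Snail protein in WM1617 only.

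Transcription and splicing factors that hold the epithelial state oppose ZEB and SNAIL proteins. Only 4 of 14 on the list were tested, and 3 of them (GRHL1, EHF and ESRP1) were lower at an unadjusted edgeR p of 0.05, against 2.34% of all genes, with 0 after adjustment. ESRP1, an epithelial splicing regulator, held 408, 291, 10, 206 and 205 counts in the sensitive and 7, 13, 21, 160 and 5 in the resistant libraries. It was thus lower in 4 of 5 lines (log2 fold change -2.61, SE 1.06, edgeR adjusted p = 0.685). EHF was carried by sensitive WM278, with 405 counts, and was at 1 to 56 elsewhere among the sensitive libraries. None passed without resistant WM983A, without both WM983A libraries, without both WM983B libraries or without resistant WM902B. Among the 10 that were not tested, some were far higher in resistant WM983A than in its parent: ELF3 (an epithelial ETS factor) went from 6 to 759 counts, FOXA2 from 0 to 889 and FOXA1 from 0 to 45.

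Epithelial genes that ZEB and SNAIL proteins are known to repress were read next. Of 25 on the list 12 were tested, and 5 (PATJ, PKP3, JUP, MUC1 and KRT8) were higher and none lower at an unadjusted edgeR p of 0.05, against 4.81% and 2.34% of all genes, with 0 after adjustment. The median log2 fold change of the 12 was 1.52. Without resistant WM983A 4 of them (all but KRT8) passed, where 4.52% of all genes were higher, and without both WM983A libraries PATJ, PKP3 and JUP did, where 3.38% were, with medians of 0.93 and 0.86. Those 3 passed in each of the 15 fits that left out 1 library or 1 line, in which 3 to 7 genes of the list were higher. The 3 were also all that passed without resistant WM983B or both WM983B libraries, or without any 1 sensitive library but that of WM1617. Under the block by line 5 were again higher, LLGL2 in place of KRT8, where 5.69% of all genes were.

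PATJ, a scaffold of the apical junction, held 117, 96, 114, 155 and 122 counts in the sensitive and 742, 338, 203, 190 and 323 in the resistant libraries, and its normalised counts overlapped only in WM1617, where they were 168 and 165 (log2 fold change 1.61, SE 0.449, edgeR adjusted p = 0.630). PKP3 (plakophilin, a desmosome protein) had log2 ratios of 6.39, 4.02, 1.15, -0.64 and 2.52. CDH1 itself was not tested, as it was at 0 to 10 counts in 9 libraries and 781 in the library labelled resistant WM983A.

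By line, 11 of the 12 epithelial genes were at least 2-fold higher in WM983A and 10 in WM983B, 4 in WM278 and 0 in WM1617, and 4 in WM902B. The shares of all genes were 16.9%, 16.2%, 12.1%, 2.83% and 15.4% in that order. In WM983A these values stood beside ZEB1 at 454 normalised counts and ZEB2, SNAI1, SNAI2 and TWIST1 all below their parent. In WM983B they stood beside ZEB1 at 13.4 and SNAI2 at 144, the latter below its parent, and beside SNAI1 at 652, ZEB2 at 2178 and TWIST1 at 1150, all above it. In resistant WM902B, which held the most ZEB1 and SNAI2 of all libraries, 2 of the 12 were at least 2-fold lower and 4 higher (12.0% and 15.4% of all genes).

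The E-box that ZEB and SNAIL zinc fingers bind is CACCTG, or CAGGTG on the other strand. In the 250 bases before annotated starts (RefSeq, GRCh38.p14), 17.5% of 35116 windows, or 20.6% of 27305 genes, held it. Of the 25 epithelial genes 15 had a window and 10 of these held it. The table gave windows for ZEB1, ZEB2 and TWIST2 among the factors, and of these ZEB1 held it. Shown are the sites, in capitals, of the 3 epithelial genes that both held the motif and passed the unadjusted threshold. A match is a description and not a bound site.
PATJ, chr1:61742299-61742324, plus strand: ggtaggaattCACCTGcacgtaaaca
PATJ, chr1:61742440-61742465, plus strand: gagggcctgcCAGGTGaggcgcggtc
JUP, chr17:41786015-41786040, minus strand: actctggcccCACCTGccgagcaggt
JUP, chr17:41786004-41786029, minus strand: acctgccgagCAGGTGagcgcacgga
MUC1, chr1:155192982-155193007, minus strand: ggggttttgtCACCTGtcacctgctc
MUC1, chr1:155192975-155193000, minus strand: tgtcacctgtCACCTGctccggctgt
The paired windows of JUP and of MUC1 overlap, so that the same bases appear in both.

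Mesenchymal genes did not move as a block. Of 15 tested among 20, 3 were higher (COL1A1 and TAGLN among them) and 1 lower (TNC) at an unadjusted edgeR p of 0.05, against 4.81% and 2.34% of all genes. After adjustment 0 passed, and the median log2 fold change was 0.18. Without both WM983A libraries 4 were higher and 0 lower (3.38% and 1.49% of all genes). Over the 15 fits that left out 1 library or 1 line 2 to 5 were higher and 0 to 1 lower. In those fits 2.30% to 7.34% of all genes were higher and 0.935% to 6.18% lower. In WM983A 2 were at least 2-fold higher and 8 lower (16.9% and 19.4% of all genes), whereas in WM983B 8 were higher and 1 lower (16.2% and 11.2%). RNA of VIM (vimentin), the most used marker of the mesenchymal state, was lower in all 5 lines. Its log2 ratios were -1.51, -0.14, -0.86, -0.13 and -0.24 (edgeR log2 fold change -0.51, SE 0.284, unadjusted p = 0.101, adjusted p = 0.752). By protein array, which is another measure, the authors reported vimentin as high in resistant WM1617 and WM902B.

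CDH2 (N-cadherin) had log2 ratios of -1.09, -0.23, -0.13, 1.68 and -4.85. It was thus lowest in resistant WM902B, with 27 counts, beside 723 normalised counts of ZEB1. COL1A1, a fibrillar collagen gene that is also a fibroblast marker, had log2 ratios of 2.82, 7.59, 3.84, -0.02 and 6.75 (edgeR log2 fold change 6.11, SE 1.76, adjusted p = 0.630), and TAGLN, an actin-binding protein, had -0.10, 3.06, 4.51, 0.63 and 1.79.

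**Figure D4:**
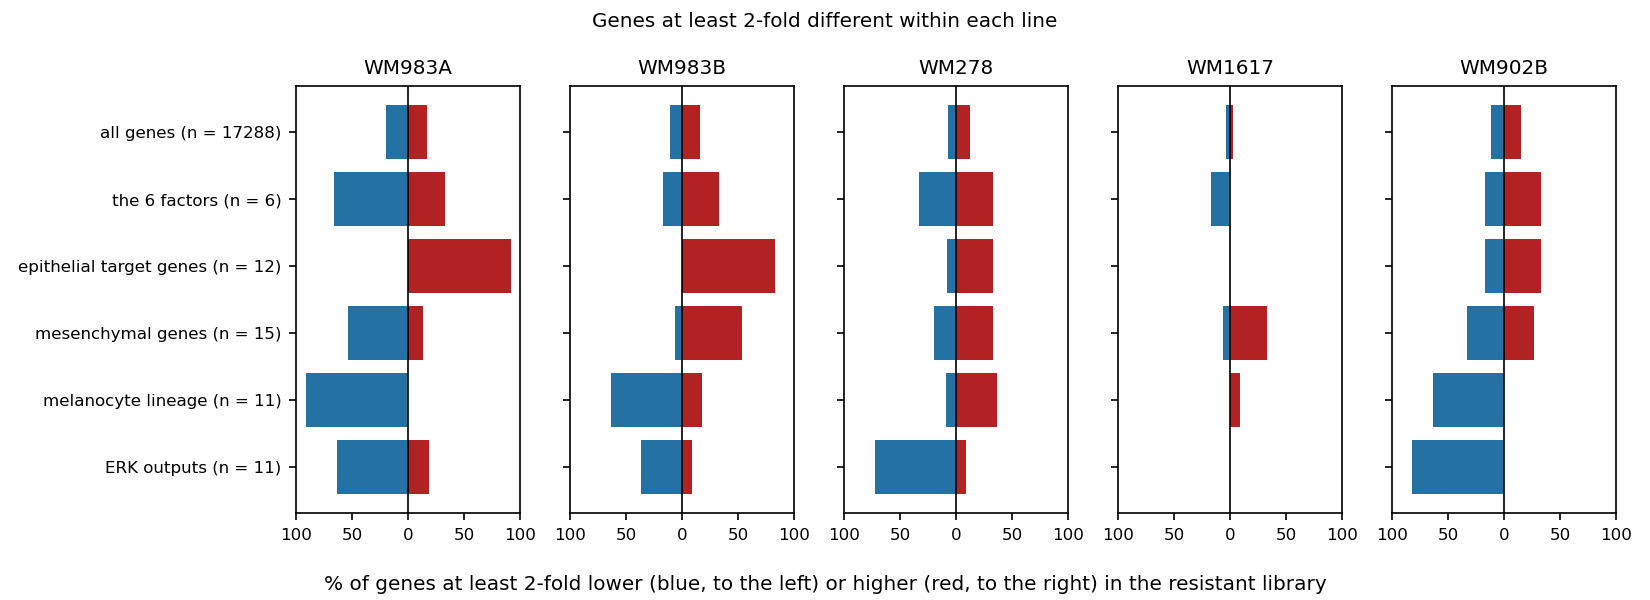
Share of the tested genes of each list that were at least 2-fold lower (blue, to the left) or higher (red, to the right) in the resistant library of each line, beside all genes. In WM983A 11 of 12 epithelial target genes were higher and 10 of 11 melanocyte lineage genes lower. In WM1617 the bars are short or absent for most lists, with 5 of 15 mesenchymal genes higher.

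Melanocyte lineage genes were read beside the factors because of the switch described above. Of 11, none was higher and 1 (TYRP1, a melanosome enzyme) was lower at an unadjusted edgeR p of 0.05, against 2.34% of all genes. Without resistant WM1617, as without both WM1617 libraries, 5 were lower (TYR, TYRP1, DCT, MLANA and PMEL), where 6.18% and 5.30% of all genes were, and without sensitive WM983B or both WM983B libraries none was. When the line was a block it was TYR, the first enzyme of melanin synthesis, that was lower in place of TYRP1 (4.99% of all genes). By line, 10 were at least 2-fold lower in WM983A, 7 in WM983B, 7 in WM902B, 1 in WM278 and 0 in WM1617. The shares of all genes were 19.4%, 11.2%, 12.0%, 7.00% and 3.80% in that order. The 3 lines with many such losses were those where ZEB1 was higher by 2-fold or more. In WM983B that was only 2 against 14 counts of ZEB1, and whether resistant WM983A derives from its labelled parent cannot be told. Among the 3 lines SNAI2 was lower in WM983A and WM983B and higher in WM902B. In WM278, where ZEB1 was lower and ZEB2 and SNAI2 higher, 4 lineage genes were at least 2-fold higher (12.1% of all genes).

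MITF held 5849, 3983, 171, 8782 and 6017 counts in the sensitive and 446, 588, 227, 9215 and 3251 in the resistant libraries, and SOX10 5197, 4629, 5080, 4814 and 4767 against 84, 201, 4294, 5897 and 10. In the group test neither passed, with edgeR log2 fold changes of -1.02 (unadjusted p = 0.359) and -1.37 (unadjusted p = 0.277). Of 9 tested genes of the undifferentiated state, PDGFRB was higher and NGFR lower at an unadjusted edgeR p of 0.05, against 4.81% and 2.34% of all genes. With the line as a block PDGFRB was not higher and NGFR was not lower, while FOSL1 was lower (4.99% of all genes). Without resistant WM983A LOXL2 was higher as well (4.52% of all genes). Over the 15 fits that left out 1 library or 1 line 0 to 3 were higher and 1 to 2 lower. In those fits 2.30% to 7.34% of all genes were higher and 0.935% to 6.18% lower. AXL, a receptor kinase of that state, had log2 ratios of 1.58, -0.20, -1.36, 0.27 and 1.03, with the same sign as those of ZEB1 except in WM983B.

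Signals that are known to induce these factors were tested as a last group. Of 19 upstream genes, 3 were higher (TGFB1, FOSL2 and STAT3) and 1 lower (CTNNB1) at an unadjusted edgeR p of 0.05, against 4.81% and 2.34% of all genes. With the line as a block FOSL2, STAT3, JUN and SMAD3 were higher and TGFB3, FOSL1 and NOTCH1 lower (5.69% and 4.99% of all genes). Without both WM983A libraries only FOSL2 was higher and none was lower (3.38% and 1.49% of all genes). None passed without both WM902B libraries, 6 were higher without sensitive WM278, and 4 were lower without both WM1617 libraries. TGFB1, a ligand of the transforming growth factor β pathway, had log2 ratios of 3.28, 2.14, -0.00, -0.88 and 2.13 and FOSL2, an AP-1 subunit, 2.35, 2.95, 0.00, -0.49 and 2.54. Both were thus at least 4-fold higher in WM983A, WM983B and WM902B, and neither was in WM278 or WM1617. The former are also the lines in which ZEB1 was at least 2-fold higher. Of all genes 16.9%, 16.2% and 15.4% were at least 2-fold higher in them, against 12.1% in WM278 and 2.83% in WM1617. These genes were picked by their p, and the share of all genes with the same pattern was not counted. A link to ZEB1 was not tested. In WM983B the ZEB1 ratio rests on 2 and 14 counts, and whether resistant WM983A derives from its labelled parent cannot be told.

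Of 11 outputs of the ERK pathway, which the drugs inhibit, 1 was higher (EGR1) and 3 were lower (DUSP4, SPRED1 and SPRED2) at an unadjusted edgeR p of 0.05. Of all genes 4.81% were higher and 2.34% lower. With the line as a block 0 were higher and 7 lower, against 5.69% and 4.99% of all genes. Without both WM983A libraries 0 were higher and 1 lower, against 3.38% and 1.49% of all genes. Without resistant WM1617 8 were lower, where 6.18% of all genes were, and none was without both WM278 or both WM902B libraries. SPRED2, a feedback inhibitor of the pathway, was lower in 5 of 5 lines, with log2 ratios of -0.84, -0.76, -1.37, -0.16 and -1.57 (edgeR log2 fold change -0.92, SE 0.336, adjusted p = 0.645). EGR1 had log2 ratios of 1.65, 2.74, 1.57, -0.60 and -0.31.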

How the data were processed

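Polyadenylated RNA of 10 melanoma libraries (5 sensitive and 5 resistant lines) was sequenced by the authors for 75 cycles, single-end, and aligned to GRCh38 with HISAT2. The authors deposited expected counts per gene, estimated in StrandNGS, whose versions, gene annotation and use of strand are not given in the sources used here. The authors also deposited log2 values of normalised counts, which were used here only to recover 455 cells of the sensitive WM983B table that had been turned into dates. All 455 recovered counts fitted the digits still visible, and none of the 6 factors was among them. The columns of the authors' normalised values were otherwise not used.

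Members were matched by gene symbol. Gene positions and lengths came from GENCODE 44, which held 56911 of the 57955 gene identifiers. Expected counts were rounded, filtered with filterByExpr, scaled by TMM and tested over 17288 genes with the quasi-likelihood test of edgeR 4.0.16 in R 4.3.3 (5 resistant against 5 sensitive libraries, two-sided, Benjamini-Hochberg adjustment, called at an adjusted p of 0.05 and a 2-fold change). SE values are the log2 fold change divided by the root of F. A normalised count is the count divided by the TMM effective library size relative to the mean, and 1 was added before log2. The script was tested on simulated data. Single genes were also compared by exact permutation, without the pairing by line. The ratio within a line was given with its 95% counting interval, and a library at 0 was set to 3 counts for a bound. Molecules carried no identifiers, so intervals and floors cover counting error only, and p-values measure the spread between lines.

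The members and the 15 lists of related genes (171 genes) were chosen with earlier results of these data known, so the counts for the lists are no independent evidence. All 6 members were named, and from each list at most 2 tested genes with the smallest unadjusted p, with MITF, SOX10, AXL, CDH1, CDH2 and VIM, and the 3 genes with the highest Pearson r for each member. Further genes are named where a count of 5 or fewer is given, after their values were seen. Some genes that these rules name are not reported here. Alternatives were DESeq2 1.42.0, limma 3.58.1 (voom), DESeq2 size factors, library totals, other filters and additions, the other gene length, each library or line left out, and the line as a block. The block rests on the shared cell line. Deviations from the group means correlated within lines at -0.06 in WM983A, 0.54 in WM983B, 0.67 in both WM278 and WM1617, and 0.38 in WM902B. List counts with each library or line left out, and correlations without resistant WM983A, were added after seeing the data.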

Additional observations from a re-analysis of the deposited data

Results flagged for a closer look

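Within groups of 5 libraries, the highest or lowest value was compared with the rest by Dixon's ratio, in 18 groups in all, of which 3 exceeded the critical value of 0.71. Chance alone flags about 1 group in 20. The log2 level of ZEB2 in the library labelled resistant WM983A was 6.56, far below the other 4 resistant libraries (ratio 0.811). The same library set the log2 ratio of ZEB2 in WM983A to -4.30, while the other 4 lines had ratios above 0 (ratio 0.818). TWIST1 in sensitive WM1617 had a log2 level of 8.06, below the other 4 sensitive lines (ratio 0.729).

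The change of SNAI1 and of TWIST1 had opposite signs in lines from primary tumours and from metastases, and this difference was not shown by a test, as 3 lines against 2 cannot pass the threshold. The mean log2 ratio in the 3 primary lines minus that in the 2 metastatic lines was -1.98 for SNAI1 and -1.63 for TWIST1.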

How the results depend on the processing

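No adjusted call of a factor was made in any of the alternatives, so what could change was the sign or size of a fold change and the counts of genes. With the line as a block (the pairing by cell line), the edgeR log2 fold change was -0.15 for ZEB2, -0.078 for SNAI1 and -0.64 for SNAI2. It was 0.11, 0.10 and 0.21 without the block. For ZEB1 it was 2.10 (SE 1.51, unadjusted p = 0.208) with the block and 0.85 without it. For TWIST1 it was -0.65 (unadjusted p = 0.123) against -0.50, and for TWIST2 1.15 (unadjusted p = 0.520) against 1.46. With the block 17 list genes instead of 10 were lower at an unadjusted p of 0.05 (4.99% and 2.34% of all genes). The block changed no adjusted call, and it replaced some of the list genes at the unadjusted threshold, which are named with each list. With limma voom the log2 fold changes of ZEB2, SNAI1 and SNAI2 were -0.44, -0.034 and -0.88, and 9 list genes were higher instead of 18. DESeq2 called 104 genes of the whole table after adjustment, where edgeR called 0, and without the filter on low counts 2258 genes instead of 763 passed an unadjusted p of 0.05 with a 2-fold change. With the longest transcript as its length, the median level of ZEB2 was 167 per kb instead of 61.1. With 0.5 instead of 1 added before log2, the difference of ZEB1 between sensitive primary and metastatic lines was -0.10 instead of 0.10. The cause of these differences was not tested.

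Leaving out 1 library or 1 line gave edgeR log2 fold changes of -0.16 to 0.53 for ZEB2, -0.27 to 0.48 for SNAI1 and -0.92 to 0.68 for SNAI2. The difference of mean log2 levels then ran from -0.83 to 0.52 for ZEB2, -0.48 to 0.35 for SNAI1, -1.65 to 0.086 for SNAI2, -1.02 to -0.38 for TWIST1 and -0.36 to 2.09 for TWIST2. Under the same omissions 419 to 1574 genes passed an unadjusted p of 0.05 with a 2-fold change, 0 to 1 factors passed at 0.05, and 8 to 22 list genes were higher and 3 to 23 lower. The 1 factor was TWIST1 without WM983B, and its exact permutation p was 0.0476 without resistant WM983B. The 8 were found without both WM983B libraries, the 23 without both WM1617 libraries and the 1574 without resistant WM1617. A filter of 10 counts in every library removed ZEB1 and TWIST2, so no value was had for them. Each value within a line rests on 1 library per state, and ZEB1 in WM983B and TWIST2 in WM1617 rest on few counts.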
